A study of Bos taurus with 14 samples.

Results

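ND6 is the gene of 1 subunit of mitochondrial complex I, and its RNA was followed here in the milk fat globules of 14 cows. The gene is ENSBTAG00000043546, 1 of 36075 gene identifiers in the deposited tables. It was singled out with its genotype difference already known, because it had one of the smallest p-values between the genotypes among all genes. The values of ND6 by genotype are therefore given as a description, without a test.

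Complex I, the NADH dehydrogenase of the respiratory chain, takes electrons from NADH and pumps protons across the inner mitochondrial membrane. Most of its subunits are made from nuclear genes, and the mitochondrial genome encodes the hydrophobic core, of which ND6 is a part. Both strands of mitochondrial DNA are transcribed into long RNAs that are cut into single messengers, rRNAs and tRNAs. ND6 is the only protein gene read from the strand opposite to all the others, and in human cells its messenger is known to carry little or no poly(A) tail. Milk fat globules are droplets of fat released by the secretory cell of the udder, and they can enclose some of its cytoplasm, mitochondria included.

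The 14 cows were purebred Holsteins of 1 commercial farm, kept under the same conditions and on the same rations. 7 cows carried the β-casein genotype A1A1 and 7 the genotype A2A2, and the study asked how the RNA of the globules differs between them. β-casein is a main milk protein, and A1 and A2 are common forms of it. Each cow gave 1 paired-end mRNA library, and cows are named by genotype and sample number (A1A1 2, 3, 7, 8, 9, 10 and 15, and A2A2 1, 4, 5, 6, 11, 13 and 17). The sources used here give no age, parity or stage of lactation. In 4 libraries (A1A1 10 and 15, A2A2 5 and 13) the description ends in _2, without a stated meaning. Total counts ran from 16116849 to 22994197 per library, and ND6 held 13433 counts in all.

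The label was checked by gene length. Counts divided by FPKM (counts per kilobase of gene, scaled for library size) give gene lengths up to 1 common factor. This factor was set so that ENSBTAG00000043561 had the 1545 bases of COX1, whose length is therefore not checked. ENSBTAG00000043546 then had 528 bases, which is the length of ND6 in the RefSeq table of the assembly ARS-UCD2.0. 7 genes with counts have this length. ND6 has the most counts of them, 2.54 times those of the next, so length alone would not settle its identity. COX1 (ENSBTAG00000043561, 1545 bases), the catalytic subunit of cytochrome c oxidase, has 33.81 times the counts of the next gene of its length. CYTB (ENSBTAG00000043550, 1140 bases), the cytochrome b of complex III, has 839 times. In the table ND6 lies next to ND5 on the mitochondrial chromosome, and a tRNA gene separates it from CYTB. 13 other mitochondrial genes, 11 protein genes (COX1 and CYTB included) and the 2 rRNAs, were identified because the most abundant gene of exactly their length had at least 10 times the counts of the next. For ATP8 this ratio was 1.5, and it was not used. For COX1 the length was the one set above. The sources used here do not say whether reads were counted by strand. Without strand, reads of ND6 and reads of opposite-strand RNA over the same DNA cannot be told apart.

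Per length, ND6 had the lowest level of the 14 mitochondrial genes used here, in every cow. The other genes were identified through their high counts among genes of the same length, while ND6 entered by its identifier. A scarce mitochondrial gene could thus fail to enter, and ATP8 has no place in this order. Its deposited FPKM ran from 31.6 in A2A2 17 to 215 in A1A1 15, with a median of 82.5 over the 14 cows. The next gene above it was ND4L, another core subunit of complex I, with a median FPKM of 979. ND5, the neighbour of ND6 on the chromosome, had a median FPKM of 1803, CYTB 10900 and COX1 41333. ND6 was thus far from every other gene used in this order of levels. In FPKM, ND4L exceeded ND6 by a median of 12.6-fold (range over cows 5.43 to 17.6), CYTB by 140-fold (68.3 to 258) and COX1 by 503-fold (288 to 800). The smallest of these margins belonged to ND4L, and even there no cow had ND6 above it.

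On the scale of log2(FPKM + 0.1), ND6 minus ND4L was -3.48 ± 0.57 (SD, n = 14 cows). ND4L was taken for this comparison as the gene nearest to ND6 in the same order of levels. ND6 minus CYTB was -7.10 ± 0.58, and ND6 minus COX1 was -8.93 ± 0.47 (SD, n = 14 each). ND6 was lower in 14 of 14 cows for each of these 3 pairs, and each difference passed (two-sided exact sign-flip permutation over cows, p = 0.000122, the smallest that test can give, adjusted p = 0.000122 over 3 pairs). Among all genes ND6 was not rare: it ranked 585 by median FPKM and 1586 by total counts, while COX1 ranked 1 by total counts.

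**Figure D1:**
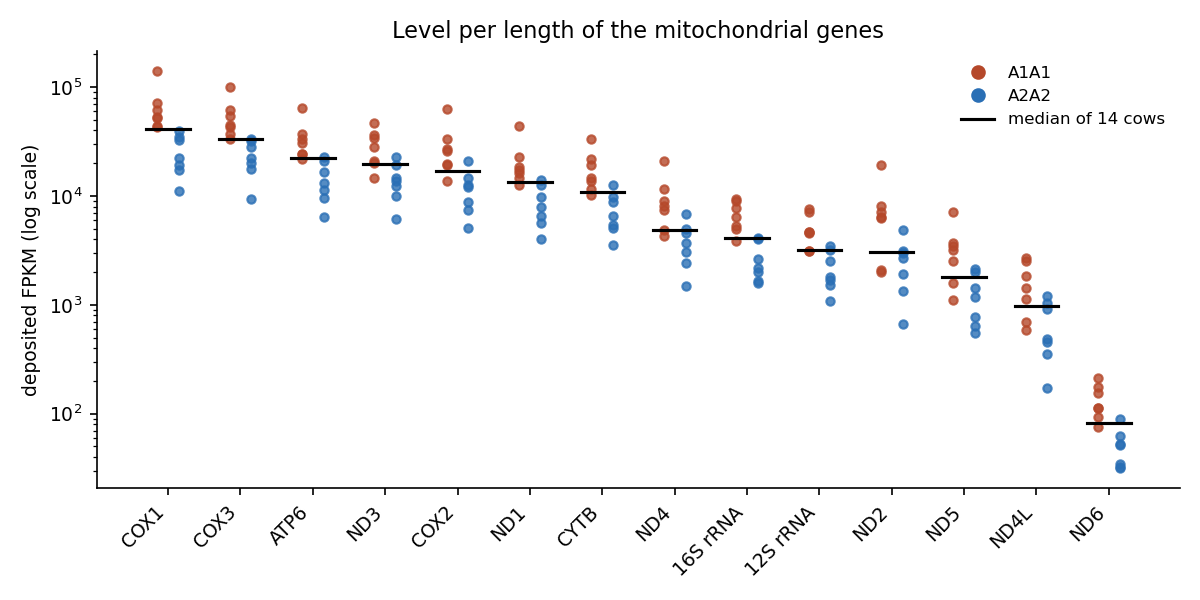
Deposited FPKM (log axis) of the 14 mitochondrial genes in each cow, A1A1 in red and A2A2 in blue, with a black line at the median of 14 cows and genes ordered by it. ND6 stands at the right end with a median of 82.5, below ND4L with 979, and COX1 is highest with 41333.

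As a share of the counts of all 14 mitochondrial genes, ND6 took 0.0279 ± 0.0119% in A1A1 and 0.0245 ± 0.00595% in A2A2 (SD, 7 cows each). The lowest share was 0.0154% in A1A1 2 (exact binomial 95% interval 0.0144 to 0.0165%). The highest was 0.0466% in A1A1 15 (0.0446 to 0.0488%). Both intervals describe counting error alone, and not the spread between cows.

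ND6 averaged 71.4 CPM (counts scaled to a common library size with TMM factors) in A1A1 cows and 26.7 CPM in A2A2 cows. In A1A1 the lowest value was 41.0 CPM in A1A1 2, the median was 60.1 and the highest was 114 in A1A1 15. In A2A2 the lowest was 16.5 CPM in A2A2 17, the median was 27.0 and the highest was 47.3 in A2A2 13. With TMM factors the genotypes overlapped through a single A2A2 cow: A2A2 13 lay above A1A1 2, and 6 of 7 A2A2 cows lay below every A1A1 cow. Scaled to library totals, A2A2 11 and 13 lay above A1A1 3. Of all 12320 genes tested, 0.138% had at least 6 of 7 A2A2 cows below every A1A1 cow. ND6 was chosen on this contrast, so nothing is read from that share.

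The SD of ND6 was 26.4 CPM in A1A1 and 11.1 in A2A2, or 36.9% and 41.6% of the mean (n = 7 each). Counts of ND6 ran from 301 to 1975 per library, which gives a counting error of 5.76 to 2.25% for single libraries. The difference in mean log2(CPM + 0.5), A2A2 minus A1A1, was -1.41 with a standard error of 0.29. Fewer cells or globules with mitochondria and less ND6 RNA in each cannot be told apart in such bulk samples.

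**Figure D2:**
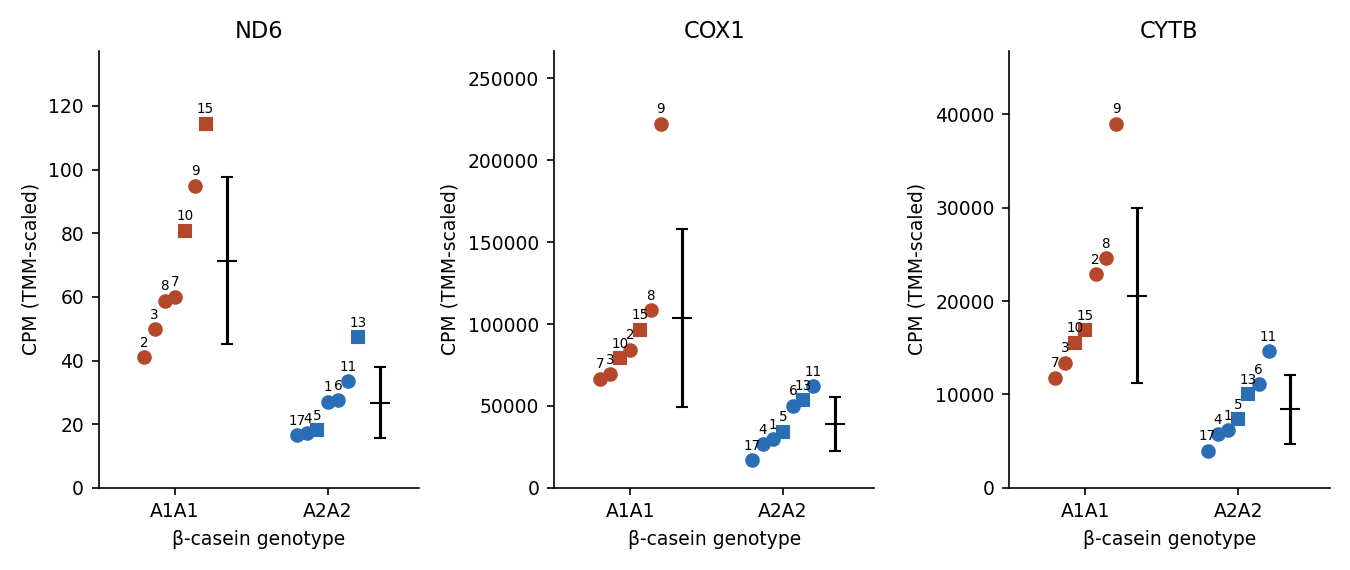
TMM-scaled CPM of ND6, COX1 and CYTB in each cow by genotype, with cows sorted by value, labelled by sample number, and squares for descriptions that end in _2. Black bars give the mean and SD of 7 cows. For ND6, A2A2 13 at 47.3 CPM is the only A2A2 cow above an A1A1 cow, and A1A1 9 stands highest for COX1 at 222371.

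COX1 and CYTB, the heavy-strand references, are shown beside ND6. With TMM factors COX1 had 103816 ± 54301 CPM in A1A1 and 39016 ± 16356 in A2A2 (SD, 7 cows each), and all 7 A2A2 cows lay below every A1A1 cow. Such a separation, lower in A2A2, held for 0.0325% of the genes tested. CYTB had 20582 ± 9394 CPM in A1A1 and 8433 ± 3696 in A2A2, with 6 of 7 A2A2 cows below every A1A1 cow. Scaled to library totals the genotypes overlapped for both references: A2A2 6, 11 and 13 lay above A1A1 3 for COX1 and for CYTB. Their differences in mean log2 CPM were -1.41 and -1.30, with standard errors of 0.34 and 0.33.

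No gene was called different between the genotypes by edgeR, so ND6 and the 13 other mitochondrial genes were not called either. The share called at an adjusted p of 0.05 was 0% of 12320 genes, and 411 genes had an unadjusted p under 0.05 (146 higher and 265 lower in A2A2, but 547 and 80 with library totals in place of TMM factors). The 13 other mitochondrial genes were all among the lower genes at the unadjusted level, which 2.15% of genes reached. limma voom called 0% of genes, limma on log2(FPKM + 0.1) called 0% and limma on log2(FPKM + 1) called 0.0102%, or 1 gene, which was not one of the 14. DESeq2 called 0.118% of the genes to which it gave an adjusted p, which is 12 genes with 9 of them lower in A2A2. ND6 and 6 of the 13 other mitochondrial genes were among those 9. This count depends on the genes given to DESeq2 and on its own filtering. It was 9 with independent filtering at its default level and 5 on all genes with counts, both chosen after seeing the data. ND6 was called in each, with 2 and 1 of the 13 other genes. Nothing is read from these counts, since ND6 and the mitochondrial genes were chosen with this contrast known.

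The 13 other genes had a median edgeR log2 fold change of -1.29, from -1.56 for ND2 to -1.04 for ND3, where the median of all genes tested was -0.0042. ND2 and ND3 are also core subunits of complex I. ND6 had -1.42, with 1 of the 13 genes below it and 12 above. Its place rested on few cows: without A1A1 15 it had -1.26, with 10 genes below it, without A2A2 11 it had -1.48, with 6 below, and among the 10 cows without the ending _2 it had -1.32, with 12 below. With library totals the median of all genes moved to 0.18 and ND6 to -1.25. In log2 CPM the SD among cows of 1 genotype was 0.52 in A1A1 and 0.56 in A2A2 for ND6. Among the others it ran from 0.50 to 1.15 in A1A1 and from 0.57 to 1.00 in A2A2. The choice of ND6 by its p-value favours a gene of small spread, so nothing is read from its place in these ranges.

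**Figure D3:**
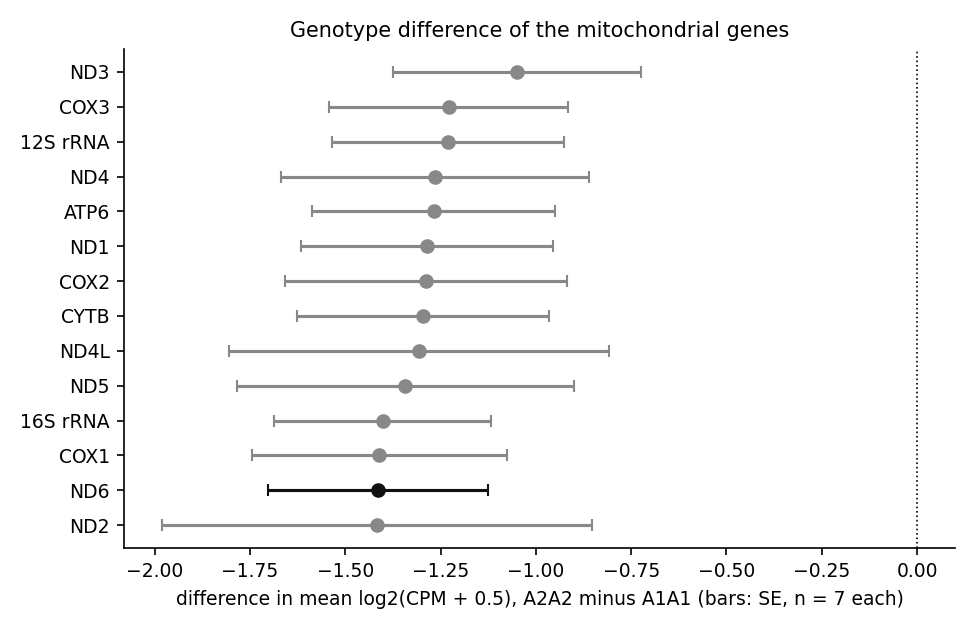
Difference in mean log2(CPM + 0.5), A2A2 minus A1A1, for the 14 mitochondrial genes, with bars for the standard error (n = 7 each) and a dotted line at 0. ND6 (black) at -1.41 lies among the other genes (grey), whose bars overlap with its own.

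Within a library the ratio of ND6 to a heavy-strand gene does not depend on how libraries are scaled to each other. The ratio of ND6 to CYTB counts was lowest in A1A1 2 at 0.179%, and the A1A1 median was 0.372% and the highest 0.678% in A1A1 15. In A2A2 it ran from 0.228% in A2A2 11 through a median of 0.299% to 0.471% in A2A2 13. Every A2A2 cow lay inside the A1A1 range. The A1A1 mean was 0.392 ± 0.184% and the A2A2 mean 0.335 ± 0.104% (SD over 7 cows), and the log2 ratio differed by -0.14 with a standard error of 0.32.

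Against COX1 the ratio averaged 0.0755 ± 0.0290% in A1A1 and 0.0719 ± 0.0198% in A2A2 (SD over 7 cows). Its lowest value was 0.0427% in A1A1 9 and its highest 0.119% in A1A1 15. The log2 difference was -0.023 with a standard error of 0.26. In both ratios the difference between genotypes was smaller than its standard error. Its sign depended on the libraries: among the 10 cows without the ending _2 the log2 differences were 0.13 for CYTB and 0.24 for COX1, and among the 4 with it they were -0.81 and -0.69. Without A1A1 15 they were 0.018 and 0.10.

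The ratio of ND6 to CYTB spread 3.78-fold over the 14 cows, with an SD of 0.58 on the log2 scale. For the 12 other mitochondrial genes the SD of the log2 ratio to CYTB ran from 0.19 (COX1) to 0.54 (ND2), so all 12 were below ND6. Against COX1, ND6 had an SD of 0.47, and 9 of 11 other genes had a smaller one. The exceptions were ND2, and 16S rRNA, the RNA of the large mitochondrial ribosomal subunit. The place of ND6 above ND2 rested on few cows. Without A1A1 15 the SD of the ratio to CYTB was 0.52 for ND6 and 0.53 for ND2, and among the 10 cows without the ending _2 it was 0.49 and 0.58. Among those 10 cows 2 of the 12 other genes had a larger SD than ND6.

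**Figure D4:**
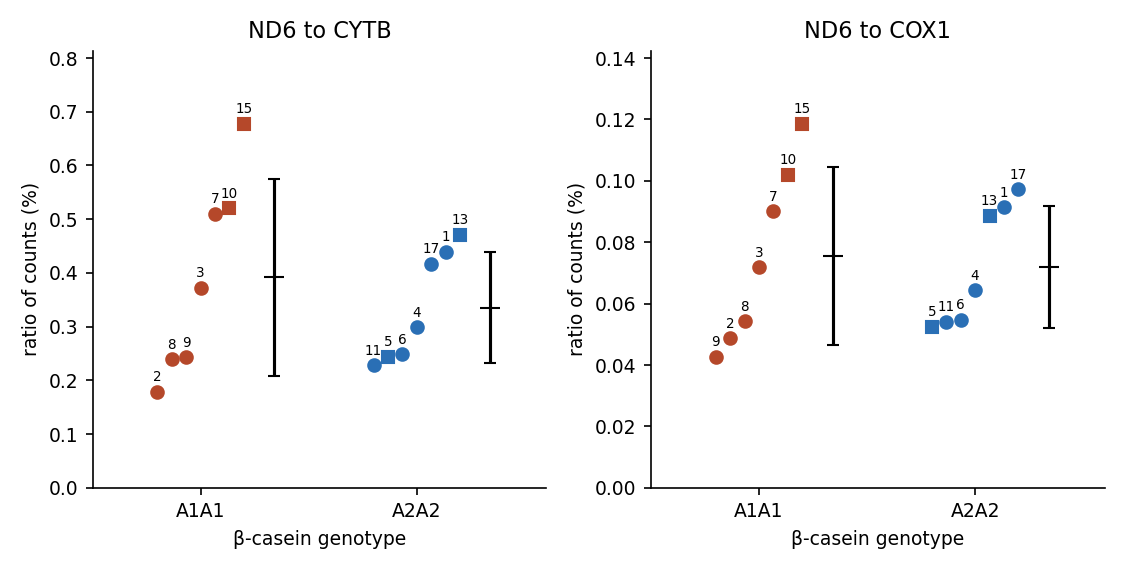
Ratio of ND6 counts to CYTB counts and to COX1 counts, in percent, in each cow by genotype (sample numbers as labels, squares for descriptions that end in _2, black bars for mean and SD of 7 cows). All A2A2 cows lie inside the A1A1 range, and A1A1 15 is highest in both panels.

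The choice of ND6 used its own spread among cows of 1 genotype, but not how other genes varied with it there. In A2A2, cows with more RNA of the other mitochondrial genes also had more ND6. The correlation of ND6 with the summed counts of the 13 other genes, both as log2 CPM, had Pearson r = 0.848 (exact permutation p = 0.0133, adjusted p = 0.0798 over 6 relations, n = 7) and Spearman rho = 0.964 (exact permutation p = 0.00278, adjusted p = 0.0167). With COX1, r was 0.802 (exact permutation p = 0.0282, adjusted p = 0.0845) and rho was 0.929 (exact permutation p = 0.00675, adjusted p = 0.0202). With CYTB, r was 0.734 (exact permutation p = 0.0564, adjusted p = 0.113) and rho was 0.857 (exact permutation p = 0.0238, adjusted p = 0.0476). The rank correlations passed after adjustment and the Pearson correlations did not. Without A2A2 11 and 17, the cows farthest from the median, r was 0.888, 0.769 and 0.650 for the summed genes, COX1 and CYTB.

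In A1A1 the relation was not detected. For the summed genes r was 0.348 (exact permutation p = 0.470, adjusted p = 0.564, n = 7) and rho was 0.143 (exact permutation p = 0.783, adjusted p = 0.783). For COX1 r was 0.493 (exact permutation p = 0.275, adjusted p = 0.412) and rho 0.357 (exact permutation p = 0.444, adjusted p = 0.667). For CYTB r was 0.20 (exact permutation p = 0.671, adjusted p = 0.671) and rho 0.143 (exact permutation p = 0.783, adjusted p = 0.783). A1A1 9 had the most RNA of the other genes, 572417 CPM, yet A1A1 15 had more ND6 at 114 CPM against 94.96. Without A1A1 9, r was -0.036 for the summed genes and -0.198 for CYTB. Without the 2 cows farthest from the median, r was -0.107 for the summed genes (without A1A1 7 and 9), and 0.545 for COX1 and -0.169 for CYTB (both without A1A1 8 and 9). Whether the correlation differs between the genotypes was not tested.

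Each genotype has 5 cows without the ending _2, and these 10 cows were pooled after subtracting each genotype's mean. Here r was 0.826 for the summed genes (exact permutation within genotype p = 0.0112, adjusted p = 0.0293), 0.849 for COX1 (p = 0.00799, adjusted p = 0.0293) and 0.714 for CYTB (p = 0.0371, adjusted p = 0.0445). Over all 14 cows the same measure was 0.623, 0.660 and 0.486 (exact permutation p = 0.0244, 0.0146 and 0.0943, adjusted p = 0.0366, 0.0293 and 0.0943 over 6 values). Without the cows farthest from their genotype's mean, r among the 10 cows was 0.569 for the summed genes and 0.611 for COX1 (both without A1A1 9 and A2A2 17) and 0.369 for CYTB (without A1A1 9 and A2A2 11). The values of 2 genes in a library share its scaling factor, which adds to such correlations.

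**Figure D5:**
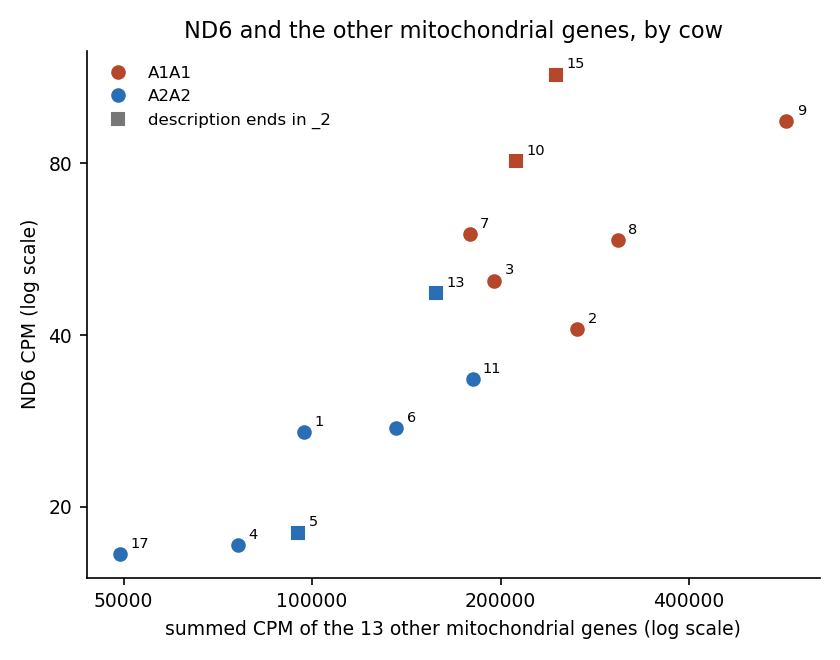
ND6 CPM against the summed CPM of the 13 other mitochondrial genes, both on log axes, for 14 cows labelled by sample number (A1A1 red, A2A2 blue, squares for descriptions that end in _2). The A2A2 cows follow a rising order (rho = 0.964), while A1A1 15 and 10 lie above and A1A1 2 below the other A1A1 cows of like summed CPM.

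Single genes differed in how closely they followed ND6. With each genotype's mean subtracted and over 14 cows, r with ND6 was highest for ND4L (0.799), ND5 (0.732) and ND1 (0.695). It was 0.660 for COX1, 0.642 for ATP6, 0.640 for ND4, 0.628 for ND2 and 0.580 for COX2, and 0.492 for COX3, 0.486 for CYTB and 0.423 for ND3. The genes of complex I thus stood both at the upper and at the lower end of the protein genes. The lowest values were those of 16S rRNA (0.368) and 12S rRNA (0.302), the RNAs of the mitochondrial ribosome. With CYTB in place of ND6, the 12 other genes had r between 0.651 (16S rRNA) and 0.956 (COX1), and ND6 had 0.486, the lowest of all. This place holds over all 14 cows. Among the 10 cows without the ending _2, ND6 had 0.714 with CYTB, and the other genes are not given there.

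None of the 13 other mitochondrial genes was among the 20 genes whose pattern was most like that of ND6 over all 12319 other genes tested. The r of those 20 genes ran from 0.819 to 0.930, and the median over all genes was 0.030. ND4L ranked 29, ND5 ranked 101 and CYTB ranked 1119. The closest gene was ENSBTAG00000002002 (r = 0.930), with 4.21 ± 2.08 CPM in A1A1 and 5.0 ± 2.38 in A2A2 (SD, 7 cows each). Next came ENSBTAG00000015371 (r = 0.899), with 1.13 ± 0.646 and 1.10 ± 0.651 CPM. It held only 322 counts over the 14 libraries, and its lowest value of 0.144 CPM was close to the floor of 3 counts. The next 3 genes in this order had r between 0.866 and 0.896. For the 2 genes given by identifier the genotype means differed by less than 1 SD. The highest of 12319 values of r over 14 cows is picked from many, so these are descriptions. No name was found for these identifiers in the tables used here.

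The 4 libraries whose description ends in _2 had 65.2 ± 41.7 CPM of ND6 and the other 10 had 42.6 ± 24.1 CPM (SD). In A1A1 the means were 97.6 CPM in 2 cows with the ending and 60.9 in 5 without it, and in A2A2 they were 32.7 and 24.4 CPM. The difference in mean log2 CPM was 0.51, or 0.71 within A1A1 and 0.31 within A2A2, and it did not pass (exact permutation within genotype, p = 0.116, two-sided). It was 0.999 without A2A2 5, where it passed (exact permutation p = 0.0238), and 0.147 without A1A1 15, 0.320 without A1A1 10. With 1 of these cows left out, the libraries with the ending hold unequal numbers of the genotypes. Part of the genotype difference therefore enters these values, and their range is not read as a range of the ending's effect. In edgeR the ending was tested across all genes with genotype in the fit, and 1.64% of the genes were called. ND6 was not called (log2 fold change 0.55, adjusted p = 0.261), nor COX1 (-0.030, adjusted p = 0.978) or CYTB (-0.19, adjusted p = 0.816). A positive value was not particular to ND6: ND4L had 0.51 (adjusted p = 0.563) and ND5 had 0.36 (adjusted p = 0.680), neither called. All the remaining mitochondrial genes had negative values.

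Both parts of this split showed ND6 with lower mean values in A2A2. The difference in mean log2 CPM between the genotypes was -1.30 among the 10 cows without the ending and -1.70 among the 4 with it. Leaving out single cows gave -1.56 (without A2A2 13) to -1.29 (without A1A1 15).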

How the data were processed

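Total RNA of frozen milk was made into paired-end mRNA libraries, per the labels' protocols. Unnormalized counts for each gene were deposited by the authors, together with FPKM values of the same genes. STAR, cutadapt 4.0, FastQC 0.11.9 and edgeR 4.0.16 are listed in the submitters' processing notes with no role. The sources used here give no genome build, annotation, counting tool or strand setting.

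The genotype came from the sample titles. Counts were fitted with the robust quasi-likelihood test of edgeR 4.0.16 (R 4.3.3), after filterByExpr and with TMM factors, as A2A2 minus A1A1 on 12320 genes, with a Benjamini-Hochberg threshold of 0.05. limma 3.58.1 and DESeq2 1.42.0 were alternatives. DESeq2 was run on the same genes and gave 10170 of them an adjusted p. Correlations and single values were tested by exact permutation in Python. The edgeR fit and a ranking of genes by like pattern were tested on simulated data. Total counts of 16116849 or more per library leave a floor of at most 0.186 CPM for 3 counts. Each cow is 1 sample, and p-values were computed with cows as the units.

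ND6, the references and the lists were chosen with earlier results of these data known. Named genes are ND6, COX1, CYTB, the mitochondrial genes found by length, and the 5 genes of highest r with ND6, of which 2 are given by identifier. 0 of 36075 identifiers matched a symbol in the reference table, so the planned lists of nuclear complex I genes, mitochondrial RNA handling genes and cell type markers were not run, and the labelled source was not checked by markers. Alternatives were RLE factors, library totals, TMM without the mitochondrial genes, other filters, the ending _2 as a covariate or a split, medians, FPKM with a pseudocount of 0.1 or 1, unlogged CPM and leaving out each library. Other DESeq2 filters, and the spread of the ratio to CYTB without A1A1 15 or the ending _2, were added after seeing the data.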

Additional observations from a re-analysis of the deposited data

Results flagged for a closer look

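COX1 had 222371 CPM in A1A1 9, far from the other 6 A1A1 cows, which ran from 66645 to 108445 (Dixon's test on 7 cows, with a gap of 0.732 of the range). ND6 in the same cow had 94.96 CPM and was not set apart. ND6, COX1, CYTB and the ratios of ND6 to both were searched in each genotype, which made 10 sets, and 1 was found. Chance flags about 1 in 20 single sets of normally distributed values, so 1 flag in a search of 10 sets can arise by chance. These values were searched without a log scale.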

How the results depend on the processing

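The ND6 genotype difference kept its direction in 23 of 23 alternatives, between -1.70 and -1.14 (medians), as did COX1 and CYTB, and the 3 level differences per length passed in 15 of 15 each. The genotype difference (A2A2 minus A1A1) in the log2 ratio of ND6 to CYTB was -0.81 in the 4 libraries with the ending _2. For the log2 ratio to COX1 it was -0.69 there. Leaving out 1 library gave -0.30 to 0.018 and -0.14 to 0.10 for these 2 differences. Genes called between the genotypes were 0 in 23 of 27 alternatives. They were 12 by DESeq2, 9 with its default independent filtering and 5 without a filter on low counts (both chosen after seeing the data), and 1 by limma on log2(FPKM + 1). At an unadjusted p under 0.05 the count was 411, and 224 (without A2A2 17) to 1881 (no filter) in the alternatives. For the ending _2, leaving out 1 library gave 0.147 to 0.999, values that part of the genotype difference enters because the genotypes are then unequal in number. Leaving out 1 library also gave, for ND6 with CYTB in A1A1, r of -0.198 to 0.404, with the summed genes in A1A1 -0.036 to 0.515, each lowest without A1A1 9, and with the summed genes in A2A2 0.835 to 0.887. In the last, r was 0.879 without A2A2 13, with an adjusted exact permutation p of 0.0417. Beyond these ranges, library totals gave 0.449 and 0.546 for the A1A1 values, and unlogged CPM gave 0.817 for the last. The cause of these shifts was not tested. No paired analysis was possible because no sample number occurs in both genotypes. The depth of 301 to 1975 ND6 counts per library limits single values to a counting error of 2.25 to 5.76%.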
